A study of Mus musculus with 12 samples.

Results

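The genes described here are 32 hypoxia-inducible genes with roles outside glycolysis, known targets of the hypoxia-inducible factors (HIFs). They were taken by gene symbol from the deposited count tables, and all 32 were found among 26608 gene rows. Of these, 30 had enough counts to be tested. Car12 and Stc2 did not: Car12 had 18 counts over all 12 libraries, and Stc2 had 1.

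Each library held RNA of about 250 cells sorted from mouse lung. Hif1a-deleted interstitial macrophages (IM) and Hif1a-deleted nonclassical monocytes (NCM) came from Cx3cr1cre;Hif1αΔ/Δ mice, in which Cre follows the Cx3cr1 promoter, active in monocytes and many tissue macrophages. Control IM and control NCM came from Hif1αflox/flox mice without Cre. All 4 groups, controls included, were C57Bl/6 animals that had been in hypoxia for 3 weeks with a weekly dose of SU5416, an inhibitor of the VEGF receptor, so there was no normoxic group. Each group had 3 libraries. The titles code NCM as RM and number the libraries. The deleted IM libraries were IM649, IM650 and IM661, and the control IM libraries were IM648, IM659 and IM660. The deleted NCM libraries were RM649, RM650 and RM661, and the control NCM libraries were RM648, RM657 and RM659. The comparison of deleted with control cells asks how Hif1a loss in Cx3cr1-expressing cells bears on gene expression in the hypoxic lung. As the control mice had no Cre, Hif1a loss and the presence of Cre cannot be told apart.

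HIF-1 is a dimer of an oxygen-labile alpha subunit, encoded by Hif1a, and the stable subunit encoded by Arnt. In normal oxygen, prolyl hydroxylases mark the alpha subunit for destruction. In hypoxia it accumulates and binds hypoxia response elements, whose core is ACGTG or GCGTG, in the promoters and enhancers of its targets. A second alpha subunit, encoded by Epas1, shares many of these targets. Besides glycolysis, HIF targets serve the removal of mitochondria, collagen and disulfide chemistry, histone demethylation, growth arrest, vascular signalling, pH control and fuel storage.

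Promoter sequence was available for 24 of the 32 genes (RefSeq, GRCm38.p6). The 250 bases before each start were searched for ACGTG and GCGTG on both strands, a palindromic CACGTG being counted once on each strand. At least 1 of the motifs was present in 19 of the 24, or 79.2%, against 41.5% of 27025 genes in the same table. ACGTG itself was present in 12 genes, or 50%, against 18.5% of all genes. The motif-free genes were Mif, Car12, Gys1, Gbe1 and Vldlr, which says only that these letters are not in this window. Below are 3 of these promoters, printed 5′ to 3′ on the gene's strand and ending at the base before a RefSeq start, with motifs in capitals. They are shown because P4ha1 and Kdm3a are among the genes with separated groups below, and Bnip3 is a classical target with several motifs.
Bnip3, chr7:138909507-138909756, minus strand: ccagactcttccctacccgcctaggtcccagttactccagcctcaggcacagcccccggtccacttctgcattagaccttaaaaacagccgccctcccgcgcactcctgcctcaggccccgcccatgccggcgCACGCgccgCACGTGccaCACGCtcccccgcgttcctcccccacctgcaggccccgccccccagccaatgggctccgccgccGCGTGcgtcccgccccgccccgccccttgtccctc
P4ha1, chr10:59323046-59323295, plus strand: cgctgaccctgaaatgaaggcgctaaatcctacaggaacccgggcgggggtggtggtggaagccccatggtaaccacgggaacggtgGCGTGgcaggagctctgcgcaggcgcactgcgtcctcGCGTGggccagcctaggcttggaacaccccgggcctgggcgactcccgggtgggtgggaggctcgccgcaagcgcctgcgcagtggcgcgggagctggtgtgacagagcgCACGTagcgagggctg
Kdm3a, chr6:71632918-71633167, minus strand: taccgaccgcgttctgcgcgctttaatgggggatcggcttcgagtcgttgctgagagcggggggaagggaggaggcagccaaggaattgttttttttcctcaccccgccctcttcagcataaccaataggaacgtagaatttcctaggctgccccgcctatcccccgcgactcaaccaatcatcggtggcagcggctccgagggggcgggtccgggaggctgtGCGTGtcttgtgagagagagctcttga
Bnip3 held 5 motifs, of which 2 were ACGTG and 3 were GCGTG. P4ha1 held 3 motifs and Kdm3a held 1, a GCGTG starting 27 bases before this start, which is 1 of the 3 listed for Kdm3a. A match is a string in a sequence, and no binding was measured here.

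The libraries held 5332600 to 14099509 gene counts each. Of 17 interstitial macrophage markers, 12 passed as higher in control IM than in control NCM, and 13 of 17 NCM markers passed as lower. Between the deleted IM and deleted NCM libraries the counts were 14 and 13. The markers thus told the cell labels apart in both genotypes, which does not show how pure each library was. Classical monocyte markers (7 genes) summed to 269, 5798 and 2789 CPM in RM648, RM657 and RM659. Fibroblast and smooth muscle markers (14 genes) summed to 141, 5645 and 2797 CPM there, and both lists hold Fn1. In deleted NCM these sums were 266 to 929 CPM and 788 to 1142 CPM. Endothelial sums are given below. The targeted gene does not show excision in these files: Hif1a was at 199 ± 6.50 CPM in deleted IM and 228 ± 15.6 CPM in control IM, and at 172 ± 34.8 CPM in deleted NCM and 225 ± 19.6 CPM in control NCM (SD, n = 3 each). Adjusted p was 0.938 in IM and 0.407 in NCM (edgeR). In IM every deleted library was below every control library for Hif1a, as for 13.4% of all genes. In NCM RM650 lay within the control range. A floxed gene can still be counted over its remaining exons, and coverage of single Hif1a exons was not examined. The share of reads outside annotated exons was 59.2 to 69.8% in deleted IM, 38.5 to 44.2% in control IM, 55.1 to 72.7% in deleted NCM and 58.1 to 66.8% in control NCM. It is the reads counted to no feature, relative to these reads and the gene counts together. As the strand setting of the counting is not given, it may include reads on the opposite strand of exons. IM libraries ran on lanes 5 and 7 and NCM libraries on lanes 6 and 8, so lane and cell type cannot be told apart.

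Levels are in CPM, gene counts relative to the library total, with library sizes scaled by TMM. Over the 12 libraries 22 of the genes averaged at least 10 CPM, and 3, Car9, Car12 and Stc2, were below 1 CPM. Per kilobase of exon, the most abundant was Bhlhe40, a transcriptional repressor tied to the circadian clock and to immune cells, at 54.3 CPM per kb. P4ha1, the catalytic subunit of collagen prolyl hydroxylase, followed at 39.2 CPM per kb. Next came Wsb1, a substrate adaptor of a ubiquitin ligase, at 38.8, and the mitophagy receptor gene Bnip3l at 35.3 CPM per kb. Mxi1, an antagonist of Myc, was at 20.2 CPM per kb. P4ha1 and Wsb1 were closer to each other than the spread of either over its libraries. These hypoxia-inducible genes were thus readily counted in IM and NCM, whereas the membrane carbonic anhydrases Car9 and Car12 and the secreted glycoprotein gene Stc2 were close to the limit of counting. The biological coefficient of variation (BCV), edgeR's estimate of the spread between libraries, was 0.246 to 1.72 for the 30 genes tested, with a median of 0.563, against 0.688 over all 14254 genes tested.

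**Figure D1:**
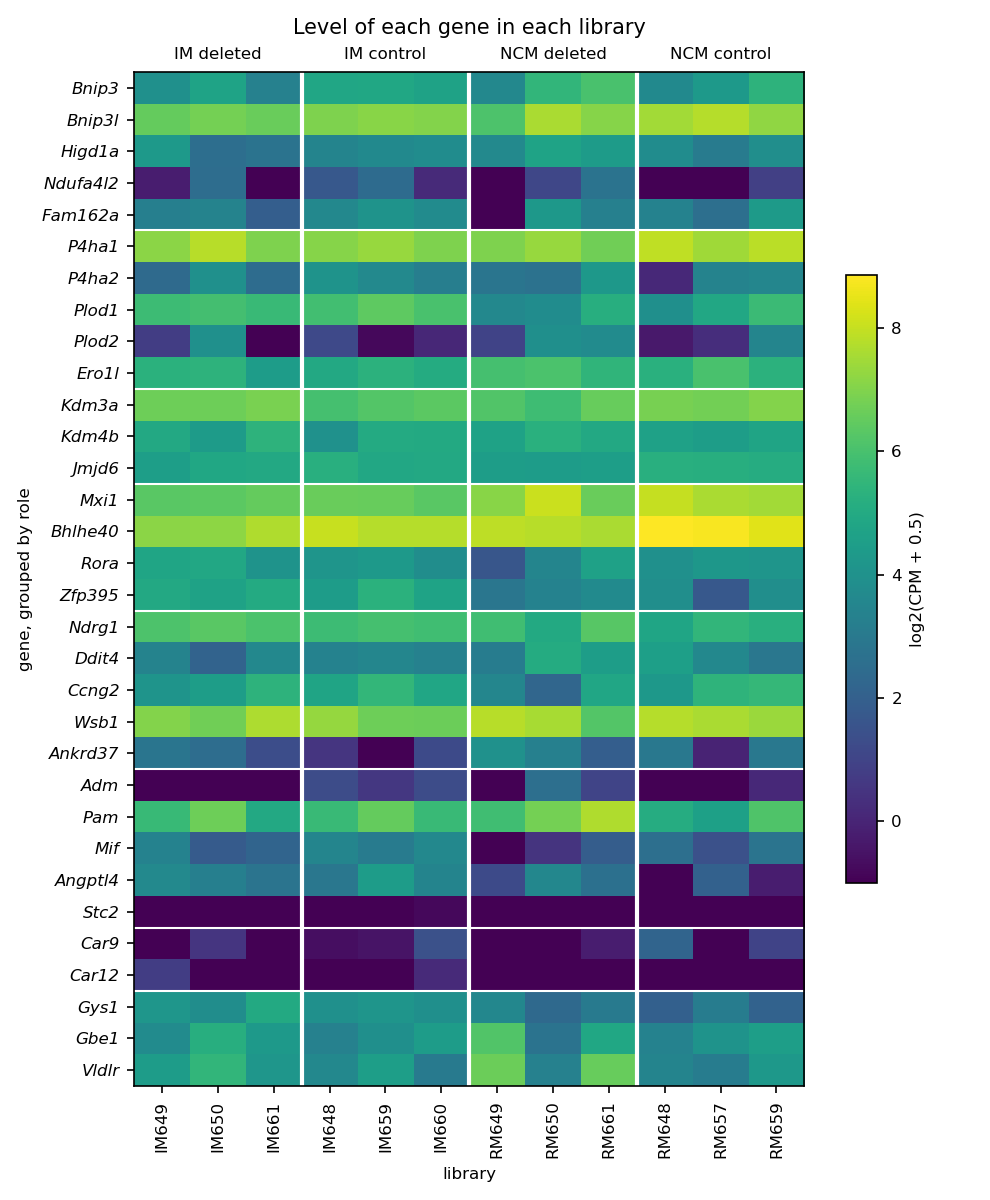
Level of each of the 32 genes (rows, grouped by role) in each of the 12 libraries (columns), as log2(CPM + 0.5). Bhlhe40, P4ha1, Wsb1, Mxi1 and Bnip3l are bright throughout, Car9, Car12 and Stc2 are near 0 CPM, and Bhlhe40 is brightest in the control NCM libraries.

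In interstitial macrophages, none of the 30 tested genes passed between deleted and control cells. The lowest adjusted p was 0.374 (edgeR quasi-likelihood test, Benjamini-Hochberg adjusted over 14254 genes), where 0.288% of all genes passed, 34 as higher and 7 as lower. At an unadjusted p under 0.05 there were 3 of the 30 (Adm, Bhlhe40 and Kdm3a), against 9.84% of all genes. DESeq2 called 0, against 2.62% of all genes, and gave no adjusted p for 6 of the 30. The median log2 fold change was -0.16 over the 30 genes, also with Adm set at its floor value below, and 0.07 over all genes. Of the 30, 12 were above 0 and 18 below. Libraries of the 2 genotypes did not overlap for 7 of the 30 genes, or 23.3%, and for 29.6% of all genes. Of the 7, 3 were higher (16.2% of all genes) and 4 lower (13.4% of all genes) in deleted IM.

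Of the transcription factor genes, Bhlhe40 had 141, 145 and 204 CPM in the deleted IM libraries, against 262, 215 and 217 CPM in the control IM libraries. Every deleted library was below every control library, by a small margin for IM661. Its means were 163 ± 35.7 CPM in deleted IM and 232 ± 26.6 CPM in control IM, the log2 fold change was -0.50 (SE 0.23) and adjusted p was 0.494. Within lane 5 the log2 ratio was -0.58 and within lane 7 it was -0.63. Where the groups do not overlap, as here, the sign within each lane is fixed in advance and adds no support. Mxi1 was nearly level, at 84.8 ± 5.54 CPM in deleted IM and 90.8 ± 9.48 CPM in control IM, and its 95% interval on the log2 scale was -0.77 to 0.58. The nuclear receptor gene Rora and the zinc finger gene Zfp395 had log2 fold changes of 0.52 and 0.05.

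Among the oxygen-dependent chromatin enzymes, Kdm3a, a histone demethylase, had 102, 103 and 117 CPM in deleted IM, against 60.7, 73.3 and 82.0 CPM in control IM. All 3 deleted libraries lay above all 3 control libraries. The log2 fold change was 0.58 (SE 0.27, adjusted p = 0.50), and the within-lane ratios were 0.41 in lane 5 and 0.84 in lane 7. The groups overlapped for the demethylase gene Kdm4b, at 31.0 ± 10.3 CPM in deleted IM against 26.1 ± 9.32 CPM in control IM, and for the oxygenase gene Jmjd6, at 27.3 ± 4.05 CPM in deleted IM against 32.0 ± 3.95 CPM in control IM.

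The 5 mitochondrial genes all had log2 fold changes below 0 in IM, with either scaling and with none past the test. Within single lanes this did not hold throughout. Ndufa4l2 was at 1.20 in lane 5, Higd1a was at 0.08 in lane 7, and Bnip3 was at only -0.04 in lane 5. Bnip3l had 91.9, 110 and 96.4 CPM in deleted IM, against 124, 137 and 130 CPM in control IM. These libraries did not overlap, but the log2 fold change of -0.39 had a 95% interval of -1.06 to 0.29 (adjusted p = 0.858). Bnip3, its paralog and also a mitophagy receptor, had 15.0, 25.8 and 9.47 CPM in deleted IM, against 28.2, 28.5 and 24.9 CPM in control IM. IM650 reached the control range, and the log2 fold change was -0.70 (SE 0.62, adjusted p = 0.886). Fam162a, whose product promotes cell death in hypoxia, was at 7.59 ± 3.69 CPM in deleted IM and 13.6 ± 2.39 CPM in control IM, without overlap (log2 fold change -0.84, SE 1.16, adjusted p = 0.974). Higd1a, a regulator of the respiratory chain, and Ndufa4l2, which restrains complex I, had log2 fold changes of -0.22 and -0.58 with overlapping libraries.

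Of the growth and stress regulators, Ndrg1, a stress-responsive gene, had 69.2, 81.0 and 66.0 CPM in deleted IM, against 53.6, 61.0 and 56.4 CPM in control IM. Its libraries did not overlap, and the log2 fold change was 0.34 (SE 0.36, adjusted p = 0.931). Ankrd37 was also separated at low levels, 2.03 to 6.69 CPM in deleted IM and 0 to 1.84 CPM in control IM (log2 fold change 2.31, adjusted p = 0.713). Ddit4, an inhibitor of mTOR signalling, Ccng2, an unconventional cyclin, and Wsb1 overlapped between genotypes, with log2 fold changes of -0.26, -0.33 and 0.29.

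Adm encodes the vasodilator peptide adrenomedullin. It had 0 counts in all 3 deleted IM libraries, against 27, 14 and 24 counts in the control IM libraries. With the deleted group set at a floor of 3 counts over the group, or 0.129 CPM, this was at least 12.6-fold lower, with an adjusted p of 0.374. Its highest level in any library was 5.58 CPM. The remaining secreted factor genes, the cytokine gene Mif, the lipase inhibitor gene Angptl4 and Pam, whose enzyme amidates peptides such as adrenomedullin, overlapped, with log2 fold changes of -0.84, -0.49 and -0.09. The collagen and disulfide enzymes P4ha1, Plod1 and Ero1l had log2 fold changes of 0.22, -0.33 and -0.03, and P4ha2 and Plod2 had -0.55 and 2.72 at low levels. Of these 5, none was separated. The glycogen enzyme genes Gys1 and Gbe1 and the lipoprotein receptor gene Vldlr had log2 fold changes of 0.42, 0.58 and 0.98, all with overlapping libraries. The carbonic anhydrase gene Car9 was between 0 and 2.24 CPM in IM.

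**Figure D2:**
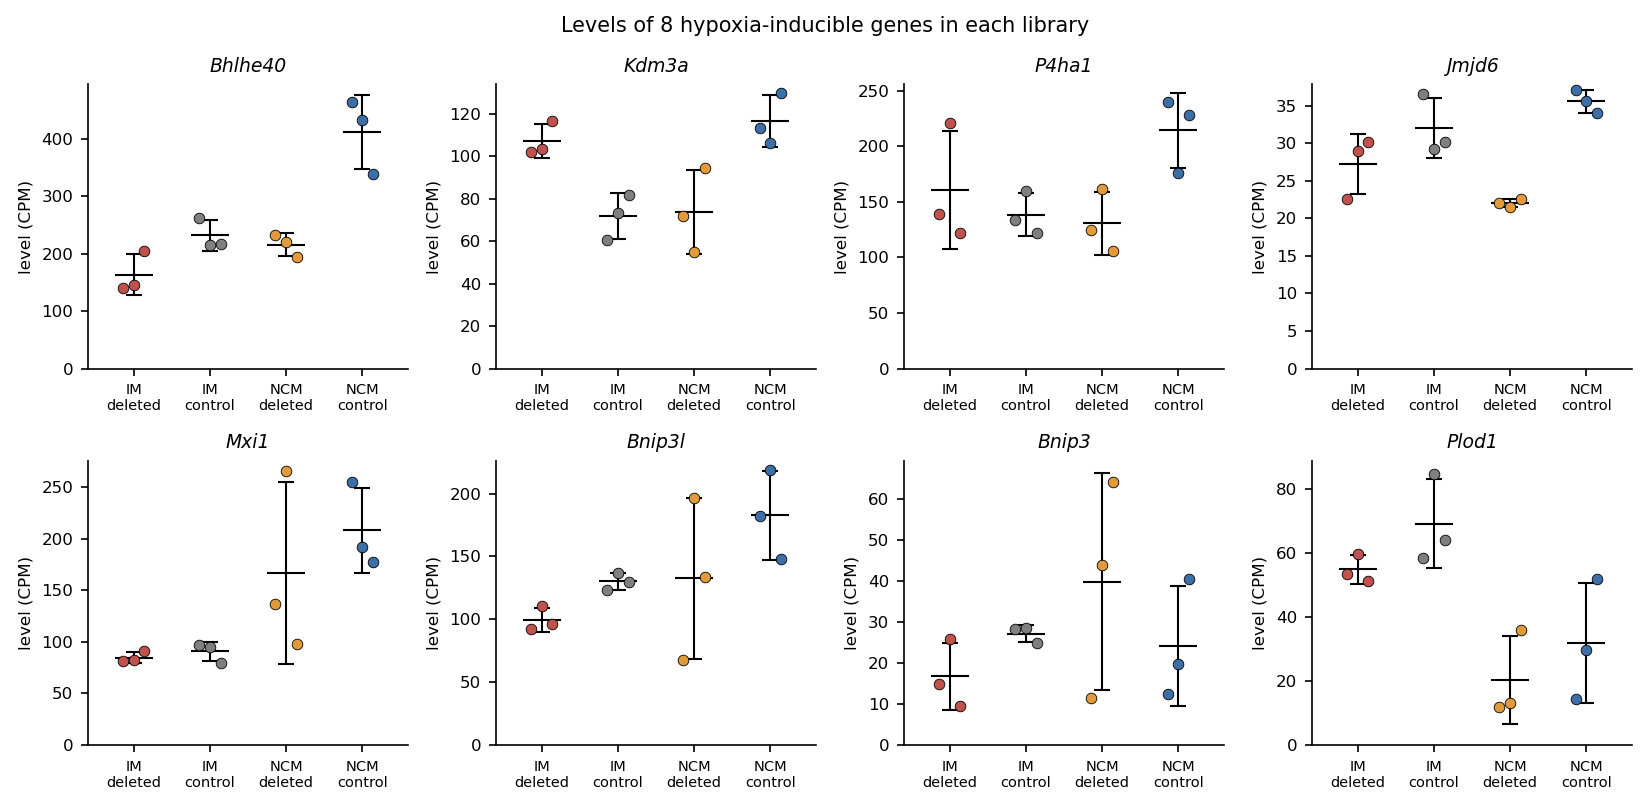
Level in CPM of 8 of the genes in each library (points), with the mean (long bar) and SD (whiskers) of the 3 libraries per group. Bhlhe40 libraries of deleted NCM (194 to 232 CPM) sit below those of control NCM (339 to 464 CPM), and Kdm3a libraries of deleted IM sit above those of control IM while those of deleted NCM sit below those of control NCM.

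The higher share of reads outside exons in deleted IM moved with this comparison. The summed level of 8 nuclear RNAs was 40600 to 55050 CPM in deleted IM and 8969 to 17628 CPM in control IM, and 3 of the 7 that could be tested passed as higher. With the share of reads outside exons as a covariate, 0 of the 30 genes passed. The median over all genes was 0.52 on the log2 scale, against 0.07 without it. That share did not overlap between deleted and control IM, so the fit can hardly separate it from genotype. In that fit Bhlhe40 was at -0.60, Kdm3a at 1.16 and Ndrg1 at 1.19, so Kdm3a and Ndrg1 moved upwards along with the median of all genes, and by more. The part of nuclear RNA in single gene values was otherwise not tested.

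In nonclassical monocytes, none of the 30 genes passed either, where 0.421% of all genes did, 12 as higher and 48 as lower (28 and 31 with median-ratio scaling). The lowest adjusted p was 0.0678, for Bhlhe40 (edgeR). At an unadjusted p under 0.05 there were 5 of the 30 (Bhlhe40, Vldlr, Pam, P4ha1 and Kdm3a), against 16.1% of all genes, and DESeq2 called 3 (Bhlhe40, Pam and Vldlr), against 6.69% of all genes. The median log2 fold change was 0.30 over the 30 genes and -0.10 over all genes, with 16 of the 30 above 0 and 14 below. With median-ratio scaling the median of all genes moved by 0.14, to 0.04, that of the 30 genes was 0.45, and Zfp395 turned to above 0. Libraries did not overlap for 4 of the 30 genes, or 13.3%, against 17.3% of all genes, and all 4 were lower in deleted NCM, as were 11.4% of all genes.

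The largest log2 fold change among these 4 was that of Bhlhe40, with 232, 220 and 194 CPM in the deleted NCM libraries, against 464, 433 and 339 CPM in the control NCM libraries. The highest deleted library was well below the lowest control library. The means were 215 ± 19.6 CPM in deleted NCM and 412 ± 64.9 CPM in control NCM, the log2 fold change was -0.94 (SE 0.23) and its 95% interval was -1.43 to -0.44, with an adjusted p of 0.0678. In lane 6 the log2 ratio was -0.80 and in lane 8 it was -1.13. The adjusted p was 0.0287 by DESeq2 and 0.0440 with the share of reads outside exons as a covariate, and over all alternatives it ran up to 0.381.

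P4ha1 had 124, 161 and 106 CPM in deleted NCM, against 239, 176 and 228 CPM in control NCM, a log2 fold change of -0.72 (SE 0.28, adjusted p = 0.214). RM650 and RM657 came closest to each other, and within their lane 6 the log2 ratio was -0.31, against -1.06 in lane 8. Kdm3a had 72.1, 55.1 and 94.7 CPM in deleted NCM, against 113, 106 and 130 CPM in control NCM. Here all deleted libraries were below all control libraries, with a log2 fold change of -0.66 (SE 0.27, adjusted p = 0.241) and within-lane ratios of -1.09 in lane 6 and -0.45 in lane 8. Jmjd6 was the tightest of the 4, with 22.1, 21.5 and 22.5 CPM in deleted NCM, against 37.0, 35.6 and 34.1 CPM in control NCM. Its log2 fold change was -0.69 (SE 0.39, adjusted p = 0.405), and the ratios were -0.69 in lane 6 and -0.72 in lane 8.

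The mitochondrial genes were mixed in NCM. Bnip3l had 67.6, 196 and 133 CPM in deleted NCM, against 182, 218 and 148 CPM in control NCM. RM650 lay within the control range, and the log2 fold change was -0.46 with a 95% interval of -1.14 to 0.21. Bnip3 had 11.5, 43.9 and 64.3 CPM in deleted NCM, against 12.4, 19.8 and 40.6 CPM in control NCM, so the groups overlapped and spanned a wide range (log2 fold change 0.72, SE 0.62, adjusted p = 0.614). Higd1a, Ndufa4l2 and Fam162a had log2 fold changes of 0.72, 2.51 and -0.33, each with overlapping libraries. Mxi1 had 136, 266 and 98.2 CPM in deleted NCM, against 255, 192 and 178 CPM in control NCM, and its log2 fold change was -0.32 (SE 0.32). Ccng2 had 11.1, 4.26 and 28.1 CPM in deleted NCM, against 18.6, 42.3 and 46.6 CPM in control NCM. RM661 alone of the deleted libraries lay within the control range of Ccng2, and its log2 fold change was -1.30 (SE 0.64, adjusted p = 0.332). Adm, at 0 in deleted IM, went the other way in NCM at low levels. It had 0, 38 and 17 counts in deleted NCM, against 0, 0 and 5 counts in control NCM. The log2 fold change of Adm was 3.44 (SE 2.20, adjusted p = 0.479).

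Vldlr and Pam had the lowest p-values after Bhlhe40 and are given in full although their libraries overlapped, a choice made after their values were seen. Vldlr had 99.7, 9.70 and 95.4 CPM in deleted NCM, against 10.3, 8.32 and 18.7 CPM in control NCM. RM650 stood at the control level and the other 2 deleted libraries far above it. The log2 fold change was 2.45 (SE 0.73, adjusted p = 0.117), the ratio was -0.35 in lane 6 and 3.18 in lane 8, and without RM650 the adjusted p was 0.0291. With lane as a covariate the log2 fold change was 1.39 (adjusted p = 0.623), and without single libraries other than RM650 the adjusted p ran up to 0.314. Pam had 56.1, 111 and 205 CPM in deleted NCM, against 33.5, 23.7 and 69.6 CPM in control NCM. Only RM649 lay within the control range. The log2 fold change was 1.56 (SE 0.54, adjusted p = 0.161), with ratios of 1.44 in lane 6 and 1.67 in lane 8, and it was 0.98 without RM661. DESeq2 gave 2.62 for Vldlr (adjusted p = 0.0110) and 1.70 for Pam (adjusted p = 0.0423).

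Endothelial markers moved with this comparison. Their summed level, over 19 genes with none at 0 in any group, was 6655, 5609 and 13493 CPM in deleted NCM, against 1313, 2328 and 4438 CPM in control NCM. All 19 had log2 fold changes above 0, with a median of 1.83. None passed in edgeR, although 15 had an unadjusted p under 0.05 and DESeq2 called 13. The summed level was 3349, 5338 and 1462 CPM in deleted IM, against 2822, 4168 and 1349 CPM in control IM, so these IM groups overlapped. Pam was highest in RM661, the library with the highest endothelial sum, while Vldlr was high in RM649 and RM661 and low in RM650. The 17 NCM markers all had log2 fold changes below 0 in deleted NCM, with a median of -0.94, and 1 passed as lower (Cebpb). The median log2 fold change of 17 interstitial macrophage markers was -1.36. In sorted bulk samples such as these, fewer cells of a type and less RNA per cell cannot be told apart. The part of other cells in the values of Bhlhe40, P4ha1, Kdm3a, Jmjd6, Pam and Vldlr was not tested.

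**Figure D3:**
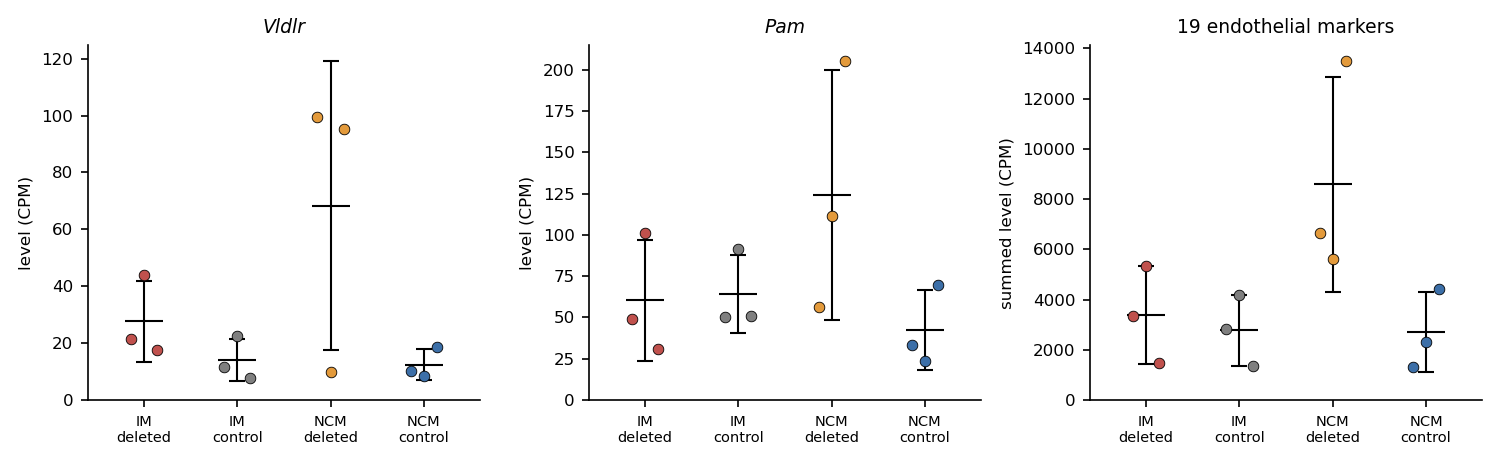
Level in CPM of Vldlr and Pam, and summed CPM of 19 endothelial markers, in each library (points), with the mean and SD of the 3 libraries per group. Deleted NCM libraries hold the 3 highest endothelial sums (5609 to 13493 CPM), and for Vldlr RM650 stays at 9.70 CPM while the other 2 are at 95.4 and 99.7 CPM.

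The fold changes in IM and NCM come from libraries that are not shared, so their difference was tested directly. Of the 30 genes 9 were below 0 in both cell types, 7 were above 0 in both and 14 had opposite signs. None passed for the difference (edgeR), where 0% of all genes did. The lowest adjusted p was 0.408, 4 of the 30 had an unadjusted p under 0.05 (Kdm3a, Adm, P4ha1 and Pam), against 8.92% of all genes, and DESeq2 called 0, against 0.435% of all genes. The log2 fold change of Kdm3a was 0.58 in IM and -0.66 in NCM, a difference of 1.23 (SE 0.38, unadjusted p = 0.00515, adjusted p = 0.408). For P4ha1 the values were 0.22 in IM and -0.72 in NCM, a difference of 0.93 (SE 0.39, adjusted p = 0.518). For Bhlhe40, below 0 in both, the difference was 0.43 with a 95% interval of -0.26 to 1.13. Adm, with few counts, was below 0 in IM and above 0 in NCM (unadjusted p = 0.0101, adjusted p = 0.457, edgeR).

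**Figure D4:**
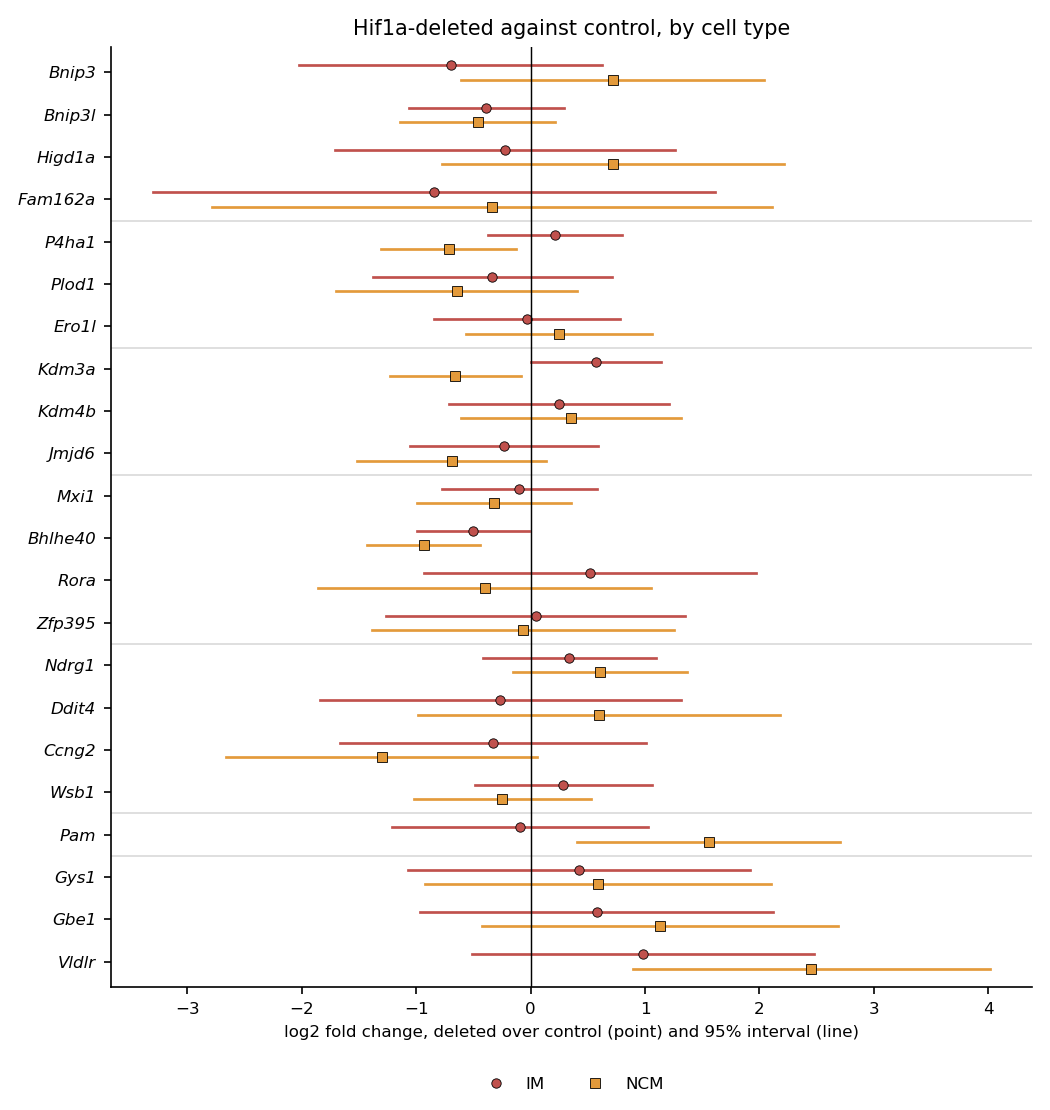
Log2 fold change of Hif1a-deleted over control cells (points) with 95% intervals (lines) for 22 genes with a mean of at least 10 CPM, in IM and in NCM. Bhlhe40 lies below 0 in both cell types, Kdm3a lies above 0 in IM and below 0 in NCM, and most intervals cross 0.

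Between control IM and control NCM, 2 of the 30 genes passed, both as lower in IM: Mxi1 and Bhlhe40. Over all genes 7.48% passed, 401 as higher and 665 as lower, the lower ones being 4.67% of all genes, so 2 of 30 was near that share. The median log2 fold change was 0.02 over the 30 genes and 0.06 over all genes. An unadjusted p under 0.05 was reached by 8 of the 30, against 20.1% of all genes. Libraries did not overlap for 13 of the 30, or 43.3%, against 35.8% of all genes, and of these 7 were higher (18.6% of all genes) and 6 lower (17.2% of all genes) in IM.

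Mxi1 had 97.2, 95.2 and 79.9 CPM in control IM, against 255, 192 and 178 CPM in control NCM. Every IM library was far below every NCM library. Its means were 90.8 ± 9.48 CPM in control IM and 208 ± 41.2 CPM in control NCM, and it was lower in IM by a log2 fold change of -1.20 (SE 0.32, adjusted p = 0.0324, edgeR). Bhlhe40 had 262, 215 and 217 CPM in control IM, against 464, 433 and 339 CPM in control NCM. Its log2 fold change was -0.83 (SE 0.23, adjusted p = 0.0397). DESeq2 also called both, but neither passed with the replicate number as a block. The adjusted p of Bhlhe40 was 0.0634 with median-ratio scaling and 0.0965 with no count filter. With the share of reads outside exons as a covariate neither passed. That share did not overlap between control IM (38.5 to 44.2%) and control NCM (58.1 to 66.8%), so the fit can hardly separate it from cell type. In that fit the log2 fold change was -0.41 for Mxi1 (adjusted p = 0.878) and -0.74 for Bhlhe40 (adjusted p = 0.630), and the median of all genes was -0.34. The folds moved little when single libraries were left out, between -1.30 and -1.02 for Mxi1 and between -0.95 and -0.71 for Bhlhe40, but the calls were near the threshold. Neither gene passed without IM649, IM661, IM648, IM659, IM660, RM648 or RM657, where adjusted p was between 0.0510 and 0.154 for Mxi1 and between 0.0550 and 0.230 for Bhlhe40. Without IM650 the adjusted p of Bhlhe40 was 0.0593. Of the libraries named, IM649, IM650 and IM661 belong to neither control group and enter only through the shared fit. The nuclear RNAs Malat1 and Neat1 also passed as lower in control IM, with log2 fold changes of -1.07 and -1.44 (adjusted p of 0.0335 and 0.0293), and the share of reads outside exons was lower there too.

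Another 8 genes above 10 CPM were separated but did not pass. Of the lower ones, Kdm3a was at 72.0 ± 10.7 CPM in control IM and 117 ± 12.2 CPM in control NCM (log2 fold change -0.70, SE 0.27, adjusted p = 0.1415, edgeR). P4ha1 was at 138 ± 19.5 CPM in control IM and 215 ± 33.8 CPM in control NCM (log2 fold change -0.63, adjusted p = 0.205). Wsb1 was at 119 ± 32.0 CPM in control IM and 192 ± 23.9 CPM in control NCM (log2 fold change -0.68, adjusted p = 0.326). Bnip3l was at 130 ± 6.64 CPM in control IM and 183 ± 35.2 CPM in control NCM (log2 fold change -0.49, adjusted p = 0.453, edgeR). Of the higher ones, Zfp395 had 21.1, 38.4 and 26 CPM in control IM, against 14, 2.81 and 13.9 CPM in control NCM (log2 fold change 1.47, adjusted p = 0.195). Plod1, a collagen lysyl hydroxylase, had 58.5, 84.7 and 64.0 CPM in control IM, against 14.5, 29.6 and 51.7 CPM in control NCM (log2 fold change 1.11, adjusted p = 0.219). Gys1, muscle-type glycogen synthase, was at 15.4 ± 1.39 CPM in control IM and 5.21 ± 2.70 CPM in control NCM (log2 fold change 1.57, adjusted p = 0.234). Ndrg1 was at 57.0 ± 3.77 CPM in control IM and 36.4 ± 8.84 CPM in control NCM (log2 fold change 0.65, adjusted p = 0.351). Plod1, Wsb1 and Ndrg1 turned in sign with the covariate for reads outside exons, to -0.44, 0.10 and -0.043. P4ha1 was at -0.08 and Kdm3a at -1.19 in that fit.

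At low levels, Angptl4, Mif and Adm were also separated, all higher in control IM. Angptl4 had 7.01, 21.4 and 10.5 CPM in control IM, against 0, 3.67 and 0.364 CPM in control NCM. It is given in full by a choice made after its values were seen. The log2 fold change was 3.25 (adjusted p = 0.174), and it was 6.00 without RM657 (adjusted p = 0.0496). DESeq2 called Angptl4 and Gys1 besides Mxi1 and Bhlhe40, that is 4 of the 30, against 12.4% of all genes. The other 17 genes overlapped between the cell types, among them Bnip3 (27.2 ± 2.02 CPM in control IM and 24.3 ± 14.6 CPM in control NCM) and Ero1l, an oxidase of disulfide formation (34.5 ± 5.12 CPM in control IM and 47.7 ± 15.1 CPM in control NCM).

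Between deleted IM and deleted NCM none of the 30 genes passed, where 4.57% of all genes did, 459 as higher and 193 as lower. The lowest adjusted p was 0.111, for Mxi1 (edgeR). An unadjusted p under 0.05 was reached by 4 of the 30 (Mxi1, Plod1, Adm and Zfp395), against 15.4% of all genes, and DESeq2 called 1 (Mxi1), against 8.62% of all genes. The median log2 fold change was -0.31 over the 30 genes, also with Adm at its floor value, and 0.14 over all genes. Libraries did not overlap for 7 of the 30, or 23.3%, against 22.2% of all genes, 5 as higher (16% of all genes) and 2 as lower in IM (6.25% of all genes). The 19 endothelial markers, highest in deleted NCM, all had log2 fold changes below 0 here, with a median of -1.35. None of them passed in edgeR, 11 had an unadjusted p under 0.05 and DESeq2 called 3.

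Mxi1 had 81.3, 82.0 and 91.2 CPM in deleted IM, against 136, 266 and 98.2 CPM in deleted NCM. RM661 was only just above the IM libraries. The log2 fold change was -0.98 (SE 0.32, adjusted p = 0.111), and the log2 fold change was -1.24 without RM661 (adjusted p = 0.0117) but -0.47 without RM650 (adjusted p = 0.455). Plod1 had 53.3, 59.7 and 51.3 CPM in deleted IM, against 11.7, 13.2 and 36.0 CPM in deleted NCM. Here too RM661 was nearest to the IM libraries. The log2 fold change was 1.42 (SE 0.50, adjusted p = 0.146), and it was 2.14 without RM661 (adjusted p = 0.0141). Leaving out any other library gave 1.14 to 1.45, with adjusted p up to 0.343. The adjusted p of Plod1 was 0.0283 with the share of reads outside exons as a covariate.

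Zfp395 was at 29.4 ± 3.57 CPM in deleted IM and 9.80 ± 3.01 CPM in deleted NCM (log2 fold change 1.58, adjusted p = 0.218). Kdm3a was at 107 ± 7.97 CPM in deleted IM and 74.0 ± 19.9 CPM in deleted NCM (log2 fold change 0.54, adjusted p = 0.359), opposite in sign to its value between the control groups. Gys1 was at 20.7 ± 9.19 CPM in deleted IM and 7.85 ± 3.26 CPM in deleted NCM (log2 fold change 1.40, adjusted p = 0.378). Jmjd6 was at 27.3 ± 4.05 CPM in deleted IM and 22.0 ± 0.550 CPM in deleted NCM, with its nearest libraries almost touching (log2 fold change 0.31, adjusted p = 0.796). Ero1l was at 33.8 ± 10.9 CPM in deleted IM and 56.6 ± 12.3 CPM in deleted NCM (log2 fold change -0.74, adjusted p = 0.386). Adm, at 0 in deleted IM, had 0, 38 and 17 counts in deleted NCM, at least 17.6-fold lower in IM with the same floor (adjusted p = 0.182).

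**Figure D5:**
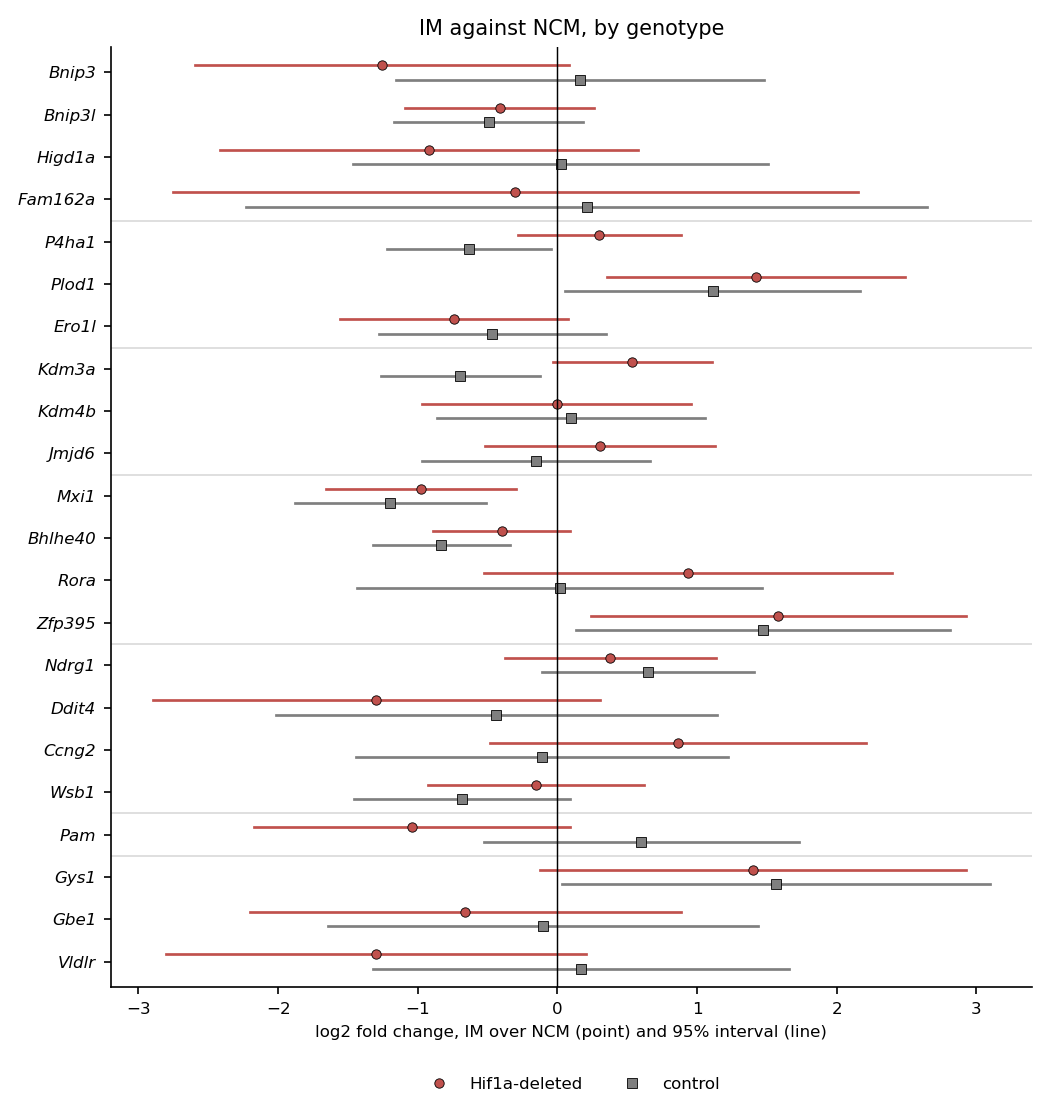
Log2 fold change of IM over NCM (points) with 95% intervals (lines) for 22 genes with a mean of at least 10 CPM, in deleted and in control cells. Mxi1 lies below 0 and Plod1 and Zfp395 lie above 0 in both genotypes, and Kdm3a and P4ha1 have opposite signs in the 2 genotypes.

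Other genes of the pathway were counted for comparison. Of 10 tested HIF subunits and oxygen sensors, none passed in IM between deleted and control cells (edgeR; 1 had an unadjusted p under 0.05 and DESeq2 called 0). In NCM 1 passed as lower: Cited2, whose product competes with HIF for a coactivator, was at 19.8 ± 4.29 CPM in deleted NCM and 64.0 ± 6.46 CPM in control NCM (log2 fold change -1.69, adjusted p = 0.0377, edgeR). Of 20 glycolytic targets, none passed in IM, where 6 had an unadjusted p under 0.05 and DESeq2 called 4. In IM 14 of the 20 were below 0, with a median log2 fold change of -0.57. In NCM 2 glycolytic targets passed as lower, Gapdh and Eno1, and 18 of 20 were below 0 with a median of -0.83. There 8 of the 20 had an unadjusted p under 0.05 and DESeq2 called 4, and of the 10 subunits and sensors the counts were 2 and 2. Epas1, which encodes the other alpha subunit and is abundant in endothelial cells, had 1666, 1571 and 3832 CPM in deleted NCM, against 280, 650 and 1182 CPM in control NCM. Its libraries did not overlap, but it did not pass (log2 fold change 1.74, SE 0.60, adjusted p = 0.164). The genes outside glycolysis had medians of -0.16 in IM and 0.30 in NCM on the same scale, and the difference between the lists was not tested. Between control IM and control NCM 1 glycolytic target passed, the lactate carrier gene Slc16a3, as lower, and between deleted IM and deleted NCM Slc16a3 passed as lower and Hk2 as higher.

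Some counts are uncertain. Mif and Bnip3l have named pseudogenes (Mif-ps3, Mif-ps7 and Bnip3l-ps). Reads that align to several places stand in a row that names no gene, 4.4 to 9.0% of reads. Some reads of Mif and Bnip3l may therefore not be counted. Jmjd6 overlaps Mettl23 on the other strand, Gys1 overlaps Ruvbl2, Ndufa4l2 overlaps Shmt2, Fam162a overlaps Wdr5b, and Ankrd37 overlaps Ufsp2 and Lrp2bp (GENCODE M21). The strand setting of the counting is not given in the sources used here, so reads of these pairs may not be separated. In the GRCm38 build Bhlhe40 lies at chr6:108660629-108666925, Mxi1 at chr19:53310518-53375810 and Vldlr at chr19:27216484-27254231, all on the plus strand. Kdm3a lies at chr6:71588972-71632990 and Jmjd6 at chr11:116837432-116843449 on the minus strand, and P4ha1 at chr10:59323296-59373304 on the plus strand.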

How the data were processed

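RNA-seq libraries of about 250 sorted cells were made with the SMARTer Stranded Total RNA-seq Pico Input Mammalian kit, per the labels' protocols. Each library has 1 deposited table of raw gene counts, whole numbers that were not normalized. cutadapt 1.12, TopHat2 2.1.1, HTSeq 0.6.0 and the GRCm38 (mm10) build are named, per the submitters' processing notes. The strand setting and the annotation were not given in the sources used here. Multiply aligned reads stand in a row of their own. Rows that name no gene held 45.0 to 74.1% of reads and stayed out of library sizes.

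Genes were kept with edgeR's filterByExpr by group (minimum count 10), which left 14254. All 12 libraries entered 1 robust quasi-likelihood fit with TMM scaling and 4 group means (R 4.3.3, edgeR 4.0.16, limma 3.58.1), tested on simulated data first. A gene passed when its p-value, Benjamini-Hochberg adjusted over all genes, was under 0.05. Log2 fold changes, SEs and 95% intervals come from this fit, and intervals are not adjusted. Alternatives were median-ratio (RLE) scaling, no count filter, DESeq2 1.42.0, only the 6 libraries compared, lane, the share of reads outside exons, the replicate number as a block, and leaving out each library. Within-lane ratios are differences between genotypes of the mean log2(CPM + 0.5). Each compares 1 library of a genotype with 2 of the other. Figures used Python 3.11.15 and matplotlib 3.10.9.

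Levels, log2 fold changes and adjusted p are given for genes that passed. They are also given for genes averaging at least 10 CPM in the libraries compared whose groups do not overlap. The genes and lists were chosen with earlier results of these data known. No label says that libraries of a group came from separate animals, so p-values measure the spread between libraries, which may be technical. Group labels were taken from the sample titles and lanes from the names of the deposited files.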

Additional observations from a re-analysis of the deposited data

Results flagged for a closer look

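The log2 fold change of Kdm3a between deleted and control cells had opposite signs in the 2 cell types. Neither passed (adjusted p = 0.50 in IM and 0.241 in NCM, edgeR). Libraries did not overlap, in either direction, for 29.6% of all genes in IM and 17.3% in NCM. How many genes were separated in opposite directions was not counted. In IM every deleted library (102 to 117 CPM) was above every control library (60.7 to 82.0 CPM), and in NCM every deleted library (55.1 to 94.7 CPM) was below every control library (106 to 130 CPM). The difference of the 2 log2 fold changes was 1.23 (unadjusted p = 0.00515), but it did not pass after adjustment over all genes (adjusted p = 0.408, edgeR). Leaving out single libraries gave differences of 1.0 to 1.45 with adjusted p between 0.0960 and 0.919. With the share of reads outside exons as a covariate the difference was 1.72 (adjusted p = 0.371, edgeR). With the replicate number as a block it was 1.43 (adjusted p = 0.953, edgeR).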

How the results depend on the processing

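In IM, 0 of 30 genes passed between deleted and control cells under every alternative run, and likewise 0 for the difference between cell types. DESeq2 gave no adjusted p for 6 of the 30 in IM. For deleted against control NCM, DESeq2 called 3, against 6.69% of all genes. The covariate for reads outside exons gave 1 there, and leaving out single libraries 0 to 1. For control IM against control NCM, where 2 passed, RLE scaling gave 1, no count filter 1 and DESeq2 4, against 12.4% of all genes by DESeq2. The covariate for reads outside exons gave 0, the replicate number as a block 0, and leaving out single libraries 0 to 2. Numbers over all genes with RLE scaling or no filter are not given for this comparison. For deleted IM against deleted NCM, DESeq2 gave 1, against 8.62% of all genes. The covariate gave 1 there, and leaving out single libraries 0 to 2. The number over all genes with the covariate is not given for that comparison. The covariate also reversed 3 log2 fold changes between control IM and control NCM, Plod1 to -0.44, Wsb1 to 0.10 and Ndrg1 to -0.043. The covariate did not overlap between these groups, and the cause of these moves was not tested. Over 540 alternative values of named genes, 3 reversed, 12 came to pass and 21 ceased to pass, and the others kept their direction and side of the threshold.

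The number of all genes that passed moved more. In IM 41 passed, against 77 with no filter, 373 by DESeq2, 950 with only the 6 libraries, 0 with lane or the share of reads outside exons, and 0 to 234 without single libraries. In NCM 60 passed, against 153 with no filter, 953 by DESeq2, 0 with only the 6 libraries, 3 with lane, 351 with the share of reads outside exons and 4 to 570 without single libraries. For the difference 0 passed, against 62 by DESeq2 and up to 34 without single libraries. Between control groups 1066 passed, against 1768 by DESeq2, 2015 with only the 6 libraries, 28 with the share of reads outside exons and 504 to 1525 without single libraries. Between deleted groups 652 passed, against 1228 by DESeq2, 228 with only the 6 libraries and 346 to 1709 without single libraries.

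Titles share 5 numbers across cell types. Same-numbered libraries deviated from their group means with correlations of -0.07 to 0.0997, none over 0.1. The main fit did not take the numbers as pairs, a choice that these values cannot decide. A differently numbered pair, IM660 and RM648, reached 0.103. Such correlations between noisy libraries cannot show whether same-numbered libraries share an animal. With the replicate number as a block, 0 of the 30 genes passed between control IM and control NCM and 0 between deleted IM and deleted NCM, and over all genes 289 and 397 passed. Depth limits what can be said of Adm, Car9, Car12, Stc2, Ndufa4l2, Plod2 and Ankrd37.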
